A study of Homo sapiens with 62 samples.

Results

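The chemokine CXCL11 (ENSG00000169248), the gene ART3 (ENSG00000156219) and 5 neighbours lie side by side on the long arm of chromosome 4. These 7 genes were taken as the 7 rows of the deposited expression table whose symbol is SDAD1, CXCL9, CXCL10, CXCL11, ART3, NUP54 or SCARB2, out of 37415 rows. They had been picked for an on-off pattern of CXCL11 and ART3 between control, NEAT1 knockout and wild-type samples, so those differences are given as descriptions with no test. PolyA RNA was sequenced in 62 libraries, 31 groups of 2, from WIBR3, an established line of human embryonic stem cells (hESC), and from its cortical, nephron, hepatic and lung organoids.

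The wild-type (WT) hESC were sampled at 0, 1, 4 and 24 h with or without PF-127 (the polymer surfactant Pluronic); the samples without it carry the treatment label NT96 and those with it PN96. WT organoids were labelled PN96 (cortical day 53, hepatic days 17 and 21, lung day 20, nephron day 7), Chip (cortical day 54, hepatic day 17) or SPIN (cortical day 60). The knockout series compared a control labelled CTR with clone 1 and clone 2, both of genotype NEAT1-/-, as hESC and as PN96 organoids (cortical and lung day 19, nephron day 13, hepatic day 21). Each knockout line is 1 clone, and the labels say neither how the CTR cells were derived nor whether a pair of libraries was grown as separate cultures, and p-values therefore rest on a spread that may be only technical.

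Levels are TPM, the authors' deposited values, which divide reads by transcript length and scale each library to the same total. TPM keep no depth, so the depth behind each value is unknown and no counting interval is given. In bulk RNA, fewer cells of a type and less RNA per cell cannot be told apart. NEAT1 itself was at 1.78 to 44.3 TPM in the 10 CTR libraries and at 0 to 0.869 TPM in the 20 knockout libraries, with every knockout library below every CTR library of the same cell type. Defining markers were read the same way. The hepatic libraries held AFP at 1951 TPM or more. Their ALB was at 7.72 to 23.9 TPM in WT, 30.8 to 71.3 TPM in CTR and 36.6 to 697 TPM in the knockout libraries. They also held the pluripotency gene POU5F1, at 46.3 to 103 TPM in WT, 34.5 to 35.1 TPM in CTR and 3.30 to 63.3 TPM in the knockout libraries. NKX2-1, which defines lung progenitors, was listed at 0 in both WT lung libraries and reached 1.93 TPM at most in the CTR and knockout lung libraries, while the pluripotency gene POU5F1 was at 17.8 to 85.1 TPM in them. Of the nephron progenitor genes, WT1 was at 0.136 TPM or less in the WT nephron libraries of day 7. On day 13 it was at 11.2 to 16.5 TPM in CTR and at 7.75 to 18.2 TPM in the knockout libraries. SIX2 and PAX2 did not overlap there. SIX2 was at 4.78 to 30.3 TPM in CTR and 60.5 to 72.5 TPM in the knockout libraries, and PAX2 at 9.87 to 14.7 and 24.2 to 66.9 TPM. The part of this difference in the nephron results was not tested.

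CXCL9, CXCL10 and CXCL11 are small secreted chemokines, made by many cell types in response to interferon gamma, and all 3 are ligands of CXCR3 on T cells and natural killer cells; CXCL11 also binds the scavenging receptor ACKR3. ART3 belongs to the ADP-ribosyltransferase family. NUP54 is a subunit of the central channel of the nuclear pore, SCARB2 (also called LIMP-2) carries glucocerebrosidase to lysosomes, and SDAD1 is the counterpart of yeast Sda1, a factor in ribosome assembly.

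In GENCODE 29 (GRCh38), all but ART3 are on the minus strand. SDAD1 spans chr4:75940950-75990962, CXCL9 chr4:76001275-76007488, CXCL10 chr4:76021117-76023497, CXCL11 chr4:76033682-76041415, NUP54 chr4:76114659-76148515 and SCARB2 chr4:76158733-76234536. ART3, on the plus strand, spans chr4:76011184-76112802 and so contains both CXCL10 and CXCL11, which lie in intron 1 of 9 of its transcript ENST00000341029.9. No exon of ART3 shares a base with an exon of CXCL10 or CXCL11 in that release (0 bases). Neither the strandedness of the libraries nor the annotation used for counting is given in the sources used here, so reads from overlapping transcripts of opposite strand cannot be told apart.

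**Figure D1:**
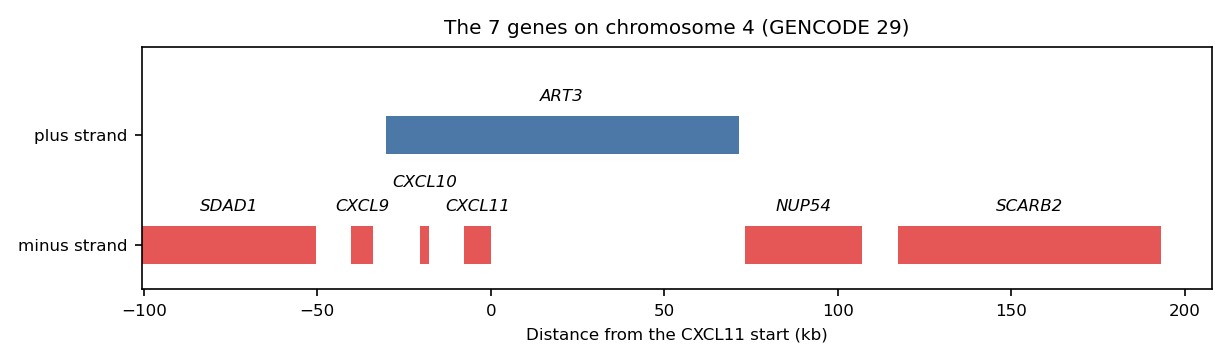
The 7 genes drawn to scale by their distance in kb from the CXCL11 start (horizontal axis), by strand (vertical axis), from GENCODE 29. CXCL10 and CXCL11 lie inside the span of ART3 on the other strand, and the NUP54 start is 107.1 kb away from that of CXCL11.

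The start regions of CXCL11 and ART3, the pair whose levels moved together, are printed with that of CXCL10, the interferon-inducible chemokine between the first ART3 start and CXCL11. The RefSeq start of CXCL11 lies inside the span that GENCODE 29 gives it. Sequences are RefSeq's (GRCh38.p14), from 250 bases before to 50 bases after the start, in gene orientation, and all 7 genes matched. CXCL11 is chr4:76036021-76036320 on the minus strand, CXCL10 chr4:76023448-76023747 on the minus strand, and ART3 chr4:76010940-76011239 for its first and chr4:76053866-76054165 for its second listed start, both on the plus strand. Capitals mark matches on either strand to an interferon response element (GAAA, any 2 bases, GAAA), a gamma activated site (TTCNNNGAA), the NF-kappa-B consensus or a TATA box (TATAAA), and no 2 matches overlap.
CXCL11: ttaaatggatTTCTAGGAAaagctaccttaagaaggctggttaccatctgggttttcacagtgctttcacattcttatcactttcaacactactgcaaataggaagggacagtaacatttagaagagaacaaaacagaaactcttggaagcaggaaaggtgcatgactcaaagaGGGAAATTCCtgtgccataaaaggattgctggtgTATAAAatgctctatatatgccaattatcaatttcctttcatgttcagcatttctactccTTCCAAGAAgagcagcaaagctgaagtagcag
CXCL10: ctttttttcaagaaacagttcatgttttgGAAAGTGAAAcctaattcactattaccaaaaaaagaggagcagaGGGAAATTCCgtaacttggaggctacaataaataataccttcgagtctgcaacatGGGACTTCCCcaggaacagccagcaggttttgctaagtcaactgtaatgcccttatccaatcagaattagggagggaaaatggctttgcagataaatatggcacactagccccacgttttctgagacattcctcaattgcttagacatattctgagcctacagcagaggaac
ART3 first start: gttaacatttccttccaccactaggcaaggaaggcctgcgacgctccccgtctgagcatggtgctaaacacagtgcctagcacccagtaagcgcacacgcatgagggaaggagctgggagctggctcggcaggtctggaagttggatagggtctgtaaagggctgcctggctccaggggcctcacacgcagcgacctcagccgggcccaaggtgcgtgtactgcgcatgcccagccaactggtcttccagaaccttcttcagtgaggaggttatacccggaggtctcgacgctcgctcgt
ART3 second start: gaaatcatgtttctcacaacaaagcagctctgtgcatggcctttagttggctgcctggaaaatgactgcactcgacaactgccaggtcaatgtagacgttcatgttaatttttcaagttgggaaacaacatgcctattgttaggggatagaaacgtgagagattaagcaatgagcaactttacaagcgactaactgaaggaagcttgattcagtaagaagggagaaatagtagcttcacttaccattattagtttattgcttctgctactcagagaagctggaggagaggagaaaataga

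The CXCL11 window held a gamma activated site at position -240 and another at 19, an NF-kappa-B match at -76 and a TATA box at -42, counted from the start as base 1. It held no match to the interferon response element as spelled here. The CXCL10 window held that element at -221 and NF-kappa-B matches at -177 and -122. CXCL9 held the interferon response element at -171 and TATAAA at -191. Neither ART3 window held any of the 4 motifs, nor did those of NUP54, SCARB2 and SDAD1. Over all 35116 promoter windows, 3.57% held the interferon response element, 7.66% the gamma activated site, 5.91% the NF-kappa-B consensus and 11.5% the TATA box. A match describes these letters only and is not a measured binding site.

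Calling a group on where both libraries reached 5 TPM and off where both were under 1 TPM, CXCL11 was on in 18 of 31 groups, off in 5 and between in 8. ART3 was on in 4, off in 9 and between in 18. CXCL10 was on in 1 group and off in 25, and CXCL9 was off in all 31, with 59 of 62 libraries at 0 and a highest value of 0.751 TPM. The outer genes were on in all 31 groups. NUP54 ran from 11.6 to 32.6 TPM, SCARB2 from 11.2 to 82.0 and SDAD1 from 24.0 to 122 TPM. CXCL11 and ART3 shared their state in part: of the 18 groups with CXCL11 on, 4 had ART3 on, 14 between and 0 off, and of the 5 groups with CXCL11 off, 4 had ART3 off and 1 between.

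In cortical organoids of day 19, CXCL11 was at 0 and 0.433 TPM in the CTR libraries, at 43.7 and 59.9 TPM in clone 1 and at 58.5 and 77.8 TPM in clone 2. ART3 was at 0.0775 and 0.0784 TPM in CTR, at 5.05 and 6.18 TPM in clone 1 and at 4.25 and 4.92 TPM in clone 2. For both genes the 4 knockout libraries lay far above the CTR libraries, and the clones resembled each other. The WT cortical organoids, which were older (days 53 to 60), had CXCL11 at 0.657 to 5.98 TPM and ART3 at 0.127 to 1.41 TPM, below every knockout library.

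In lung organoids of day 19, CXCL11 was at 0.0837 and 0 TPM in CTR, at 21.1 and 14.9 TPM in clone 1 and at 15.9 and 23.6 TPM in clone 2. ART3 was at 0.454 and 0 TPM in CTR, at 4.39 and 2.99 TPM in clone 1 and at 4.98 TPM in both libraries of clone 2. Again no knockout library overlapped CTR. In the WT lung organoids of day 20 CXCL11 lay between, at 1.90 and 1.65 TPM, while ART3, at 0.723 and 0.449 TPM, overlapped CTR.

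In hepatic organoids of day 21, CXCL11 was at 0 and 0.135 TPM in CTR, at 2.54 and 6.90 TPM in clone 1 and at 12.1 and 8.62 TPM in clone 2. ART3 was at 0.0357 and 0.0732 TPM in CTR, at 2.51 and 5.21 TPM in clone 1 and at 4.75 and 7.94 TPM in clone 2. Here WT organoids of the same day and format were measured too, and they did not resemble CTR: CXCL11 was at 15.1 and 16.1 TPM and ART3 at 4.81 and 6.20 TPM. In the WT organoids of day 17 CXCL11 was near 0 as in CTR, at 0 TPM in both PN96 libraries and at 0 and 0.182 TPM in the Chip libraries. Their ART3, at 0.436 and 0.118 TPM in PN96 and at 1.02 and 0.495 TPM on Chip, was above both CTR libraries. CXCL11 was thus also off in WT libraries, and also on in WT libraries of the same cell type.

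Nephron organoids and hESC had no off state in CTR. In nephron organoids of day 13, CXCL11 was at 48.1 and 41.6 TPM in CTR, at 71.7 and 52.0 TPM in clone 1 and at 69.5 and 63.4 TPM in clone 2, so that all groups were high and the knockout libraries somewhat higher. ART3 had its highest levels there, at 11.9 and 7.74 TPM in CTR and at 10.8 to 12.9 TPM in the clones, and these overlapped. WT nephron organoids of day 7 had CXCL11 at 1.34 and 0.621 TPM and ART3 at 0.122 and 0.112 TPM. In hESC, CXCL11 was at 11.03 and 8.57 TPM in CTR, 11.2 and 20.4 TPM in clone 1 and 15.5 and 17.3 TPM in clone 2, and at 3.37 to 13.0 TPM in the 16 WT libraries. ART3 was at 2.37 and 3.79 TPM in hESC CTR, at 3.81 to 6.74 TPM in the clones and at 0.286 to 1.91 TPM in the WT libraries, so here CTR was above every WT library.

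**Figure D2:**
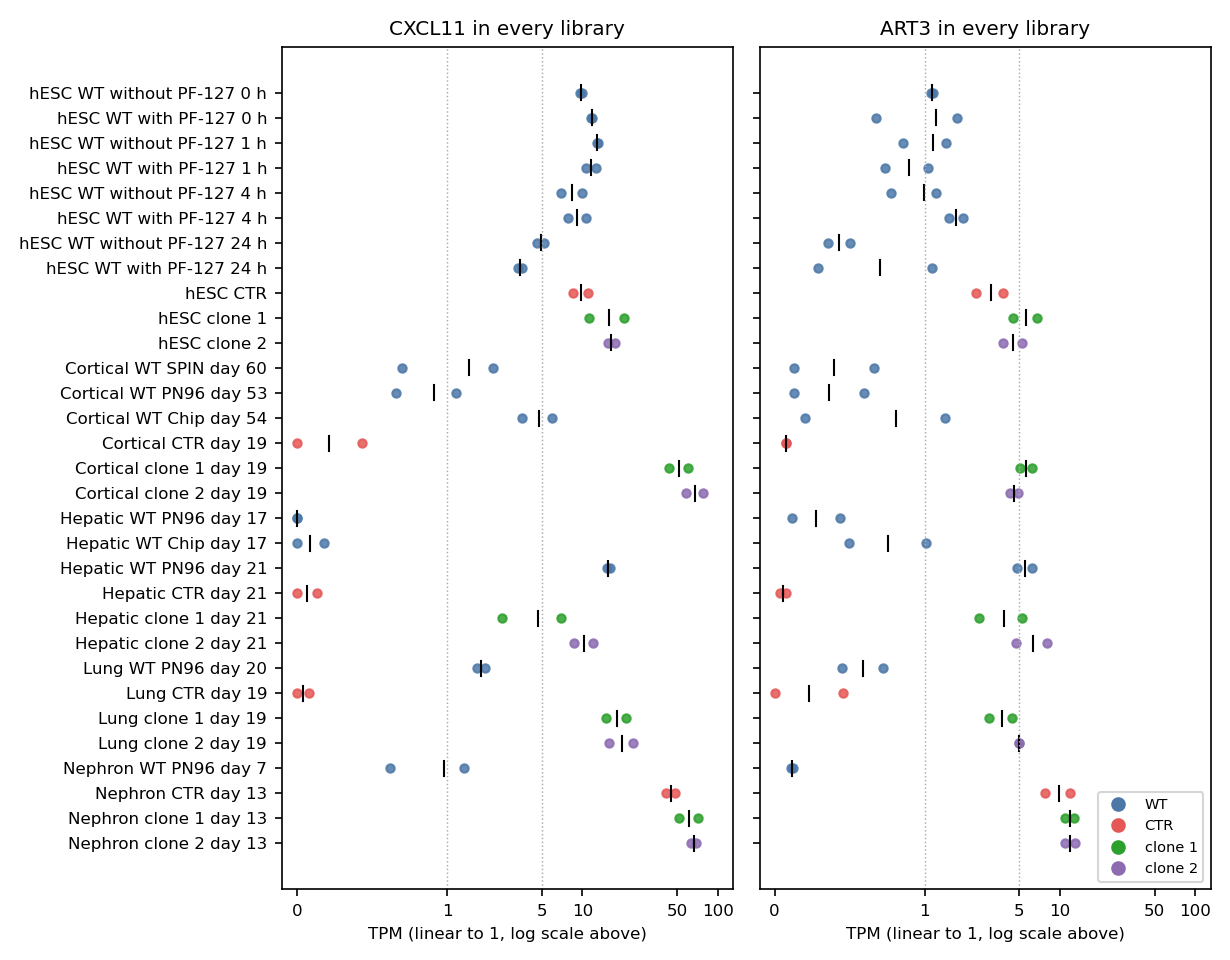
CXCL11 (left) and ART3 (right) in every library; the horizontal axis is TPM, linear to 1 and logarithmic above, each point is a library, the black tick is the mean of a group of 2, and dotted lines mark 1 and 5 TPM. CXCL11 is at 0.433 TPM or less in CTR cortical, hepatic and lung organoids and at 41.6 TPM or more in CTR nephron organoids.

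Ordered by group mean, CXCL11 was highest in cortical clone 2 (68.1 ± 13.6 TPM, SD, n = 2), followed by nephron clone 2 (66.5 ± 4.37), nephron clone 1 (61.8 ± 14.0), cortical clone 1 (51.8 ± 11.5) and nephron CTR (44.9 ± 4.60). The libraries of each of these groups overlapped those of the next, so neighbours in this order are not separated. Nephron CTR (41.6 and 48.1 TPM) lay wholly below cortical clone 2 and both nephron clones, however, and nephron clone 2 (63.4 and 69.5 TPM) above cortical clone 1 (43.7 and 59.9 TPM). A gap then separated nephron CTR from lung clone 2 (19.7 ± 5.49 TPM). From there to the hepatic WT organoids of day 21 (15.6 ± 0.661 TPM), all neighbours overlapped. At the bottom, the 5 groups off (the CTR cortical, hepatic and lung organoids and both WT hepatic groups of day 17) overlapped one another between 0 and 0.433 TPM. For ART3 the 3 nephron groups of day 13 were highest (11.9 ± 1.39, 11.8 ± 1.33 and 9.82 ± 2.95 TPM) and overlapped, and the lowest was hepatic CTR (0.0545 ± 0.0265 TPM).

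On the log2(TPM + 1) scale, which understates the difference of genes near 0, knockout minus CTR was 5.64 for CXCL11 and 2.49 for ART3 in cortical, 4.23 and 2.13 in lung and 2.85 and 2.46 in hepatic organoids. It was 0.50 and 0.27 in nephron organoids and 0.64 and 0.57 in hESC. With a pseudocount of 0.1 TPM the differences grew to 7.99 and 4.86 in cortical, 7.10 and 4.21 in lung and 5.44 and 4.97 in hepatic organoids. The hESC difference was not separated after rescaling by size factors, when 0 in place of 2 of the 5 members that passed the filter had every knockout library above CTR. On a count-based scale, the authors' deposited table gives CXCL11 log2 fold changes of 7.94 ± 0.635 (their standard error) for clone 1 and 8.33 ± 0.635 for clone 2 in cortical organoids. The authors' deposited table gives 8.65 ± 1.46 and 8.74 ± 1.46 for CXCL11 in lung organoids. In the authors' deposited table the CXCL11 values for nephron organoids are 0.49 ± 0.194 and 0.62 ± 0.193. For ART3 the authors' deposited table gives 6.20 ± 0.798 and 5.90 ± 0.799 in cortical and 0.29 ± 0.295 and 0.34 ± 0.293 in nephron organoids.

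The ratio of CXCL11 to ART3 TPM, a length-scaled ratio of levels, is given where CXCL11 reached 5 TPM. It was 8.65 to 15.8 in the 4 cortical knockout libraries, but 4.23 in the 1 cortical WT library at that level (the second Chip library of day 54). It was 4.05 to 5.38 in nephron CTR, 4.81 to 6.36 in the nephron clones and 3.18 to 4.97 in the lung clones. It was 1.09 to 2.54 in 3 hepatic knockout libraries and 2.59 to 3.15 in hepatic WT of day 21. In hESC it was 5.18 to 17.6 in 13 WT libraries but 2.26 to 4.65 in CTR and 2.50 to 4.55 in the clones. Among libraries at that CXCL11 level, the WT and the knockout-series hESC did not overlap in this ratio. That separation depends on the cut. The second WT library of 24 h without PF-127 was left out, with CXCL11 at 4.65 TPM and ART3 at 0.505 TPM. Both WT libraries of 24 h with PF-127 were left out too, with CXCL11 at 3.37 and 3.58 TPM and ART3 at 0.286 and 1.12 TPM. The one with ART3 at 1.12 TPM would lie within the CTR range.

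CXCL10 followed CXCL11 in cortical organoids only in part. It was at 0.216 and 2.19 TPM in cortical CTR, at 11.3 and 2.54 TPM in clone 1 and at 19.0 and 88.7 TPM in clone 2, so every knockout library was above CTR, 1 of them narrowly. Elsewhere it was at 1.21 TPM or less in every library, including the nephron libraries where CXCL11 reached 71.7 TPM. In nephron CTR it was at 1.21 and 0 TPM, and in hepatic and lung clones between 0 and 1.15 TPM. CXCL9 was listed at 0 in 3 of 4 cortical knockout libraries and at 0.751 TPM in the second library of clone 2, the one in which CXCL10 was at 88.7 TPM.

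**Figure D3:**
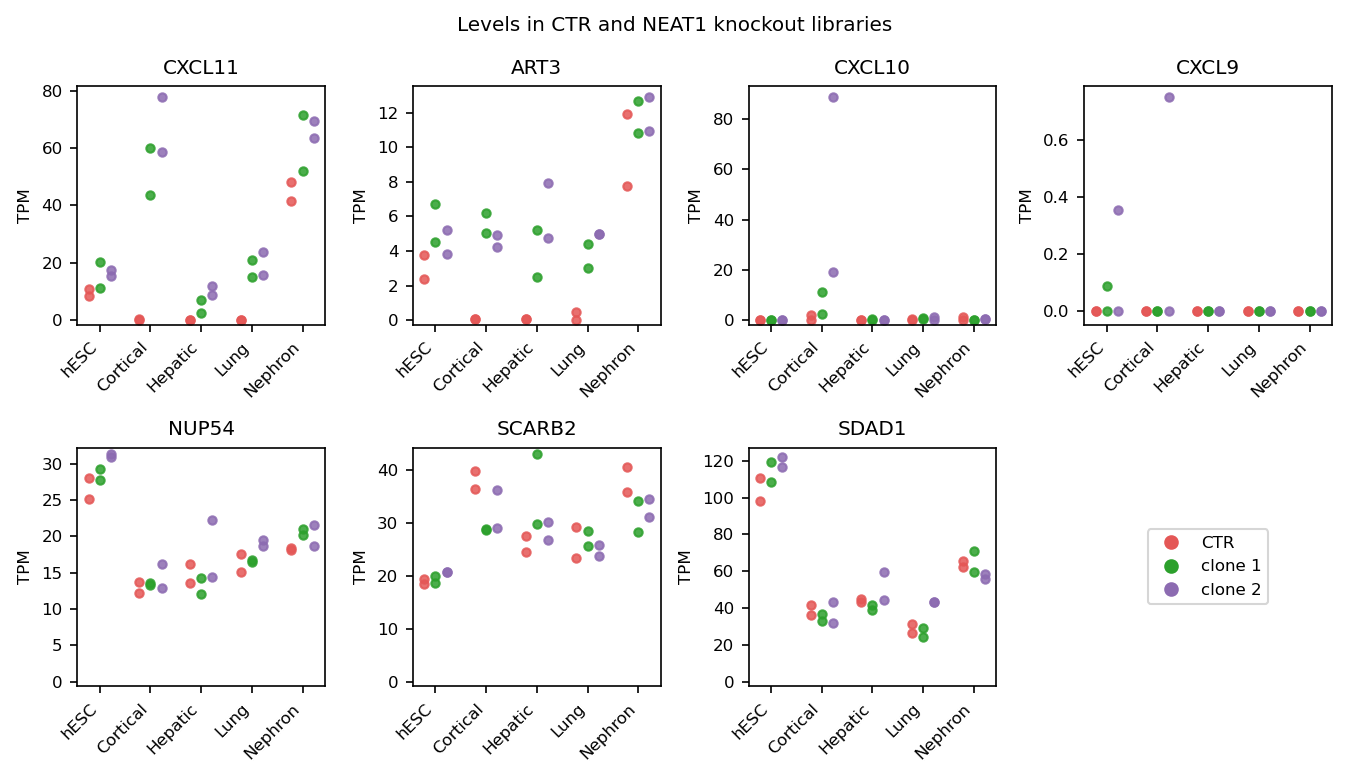
TPM (vertical axis, linear) of the 7 genes in CTR, clone 1 and clone 2 libraries of 5 cell types; each point is a library. CXCL11 and ART3 are near 0 in CTR of 3 organoid types only, and NUP54, SCARB2 and SDAD1 are present everywhere. CXCL10 runs from 2.54 to 88.7 TPM in cortical knockout libraries and is at 2.19 TPM or less in all others shown.

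The outer genes differed little between CTR and knockout. SCARB2 was lower in every knockout library in cortical organoids, at 36.4 and 39.8 TPM in CTR against 28.7 to 36.3 TPM, and in nephron organoids, at 40.7 and 35.9 TPM against 28.4 to 34.6 TPM. The log2 differences were -0.30 and -0.25. In the hepatic organoids SCARB2 ran the other way on average (0.29) with overlapping libraries. NUP54 was at 18.3 and 18.1 TPM in nephron CTR and at 18.6 to 21.5 TPM in the clones, a log2 difference of 0.15, and overlapped in the other cell types. SDAD1 overlapped between CTR and knockout in all 5 cell types, and its highest levels were in hESC of that series, at 98.3 and 111 TPM in CTR and 109 to 122 TPM in the clones.

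Counting members whose 4 knockout libraries all lay above CTR gave 3 of the 6 that passed the filter in cortical organoids (CXCL10, CXCL11 and ART3), against 6.73% of all genes, with 1 (SCARB2) all below, against 6.66%. The counts above were 2 of 5 in lung (4.39% of all genes), hepatic (10.7%) and nephron organoids (14.1%) and in hESC (24.7%). The counts below were 1 of 5 in nephron organoids (22.1%) and 0 of 5 in lung (2.83%), hepatic (8.34%) and hESC (6.97%). As the genes were picked on these contrasts, the counts carry no weight as evidence. In hESC the shares over all genes changed from 24.7% above and 6.97% below to 11.9% above and 14.2% below on rescaling.

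Further neighbours in the same chromosome band were read from a list of 17 genes. None of 13 measured was separated between CTR and knockout in cortical or in lung organoids; after rescaling 2 of 13 lay below in cortical organoids. In hepatic organoids 2 of 13 were lower in every knockout library, STBD1 (a glycogen-binding protein; 60.6 ± 9.99 against 83.3 ± 13.4 TPM) and RCHY1 (a ubiquitin ligase; 17.1 ± 1.55 against 21.0 ± 1.76 TPM, SD, n = 4 and 2). In nephron organoids the cytoskeletal SEPTIN11 was higher (224 ± 24.7 against 163 ± 6.67 TPM), as was SOWAHB (2.80 ± 0.589 against 2.22 ± 0.0159 TPM), and the vesicle tether USO1 lower (80.4 ± 6.72 against 93.3 ± 2.12 TPM). In hESC 6 of 14 were higher and 1, SHROOM3, lower, and after rescaling 2 were higher and 2 lower. The 6 were RCHY1, G3BP2, USO1, FAM47E, SEPTIN11 and CCNI, with log2 differences of 0.16 to 0.31. Of all genes in hESC, 24.7% were higher in every knockout library and 6.97% lower, and after rescaling 11.9% and 14.2%. Before rescaling these shares were 14.1% and 22.1% in nephron, 10.7% and 8.34% in hepatic, 6.73% and 6.66% in cortical and 4.39% and 2.83% in lung organoids. After rescaling 8.75% of all genes were lower in cortical organoids.

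Interferon-stimulated genes, which mark a response to interferon of any type, were compared over the same libraries. In cortical organoids 18 of 26 measured genes of a list of 40 were higher in every knockout library than in CTR, and none lower (median log2 difference 2.06 against -0.02 for all genes). Of all genes there, 6.73% were higher in every knockout library and 6.66% lower. ISG15, a ubiquitin-like protein attached to targets after interferon, was at 22.9 and 32.5 TPM in CTR, 84.6 and 165 TPM in clone 1 and 222 and 1413 TPM in clone 2. IFI6, an interferon-induced mitochondrial protein, was at 68.1 and 61.6 TPM in CTR and at 105, 183, 206 and 2670.4 TPM in the clones. IFI44 was listed at 0 in CTR and at 0.994 to 6.75 TPM in the clones, while IFI27 was listed at 0 in all of them. The library with the highest CXCL10 was thus also the highest for ISG15 and IFI6 by a wide margin. Its CXCL11 (77.8 TPM) was the highest too, by a smaller margin over the other 3 knockout libraries (43.7 to 59.9 TPM).

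CXCL11 and these genes did not differ together in lung and nephron organoids. In lung organoids ISG15 was at 169 and 231 TPM in CTR, with CXCL11 at or near 0, and at 166 to 363 TPM in the clones. There 1 of 21 genes of the list was separated upward, against 4.39% of all genes. In nephron organoids, where CXCL11 was on throughout, 11 of 19 were lower in every knockout library, 0 were higher, and ISG15 was at 43.4 and 37.3 TPM in CTR and 22.9 to 45.6 TPM in the clones. Of all genes in nephron organoids 22.1% were lower in every knockout library. The summed level of endothelial markers there was 181 to 182 TPM in CTR and 30.7 to 71.7 TPM in the clones, and that of stromal markers 1646 to 2351 and 734 to 865 TPM, and their part in the result was not tested. In hepatic organoids 5 of 30 were higher, against 10.7% of all genes, and 4 of 30 after rescaling, against 8.62%. ISG15 was at 39.5 and 52.9 TPM in CTR and at 58.3 to 310 TPM in the clones, every clone library above CTR; IFI6 was at 16.3 and 28.3 TPM in CTR and at 14.6 to 1504 TPM in the clones. In hESC 2 of 18 were higher, against 24.7% of all genes, and 4 lower, against 6.97%. After rescaling 2 were higher and 5 lower, against 11.9% and 14.2% of all genes. Of the immune markers, PTPRC, which every leukocyte carries, was at 0.443 TPM or less in all 62 libraries, and the summed level of the 10 immune genes was 6.10 to 7.22 TPM in cortical CTR and 8.23 to 10.1 TPM in the cortical clones; in lung organoids the sum was 17.5 to 21.96 TPM in CTR and 14.6 to 21.98 TPM in the clones, and in hepatic organoids 19.7 to 20.4 and 17.3 to 43.2 TPM. Their part in the results was not tested.

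**Figure D4:**
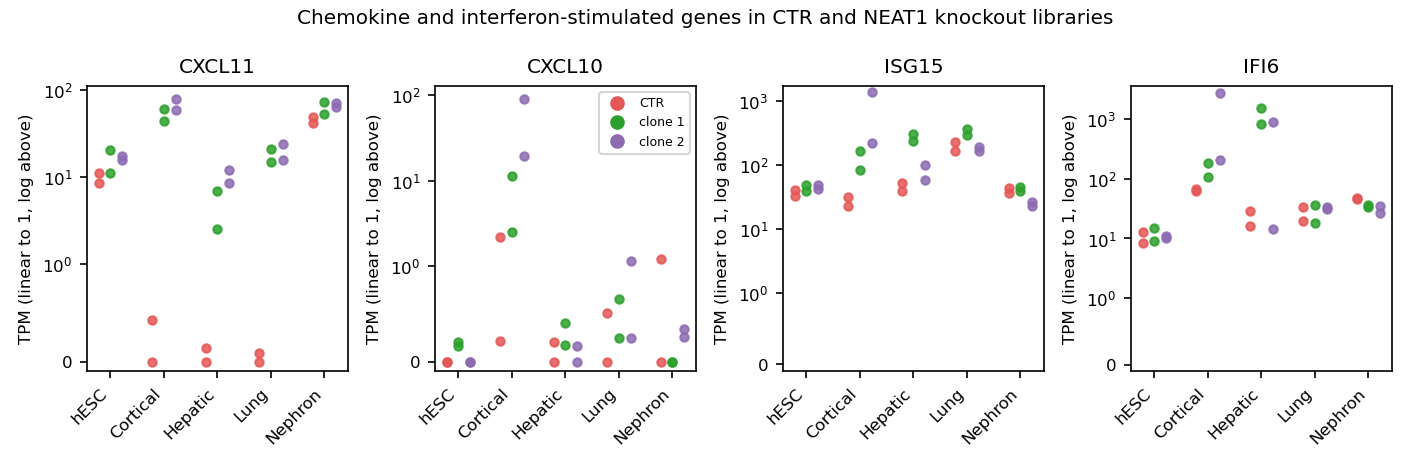
CXCL11, CXCL10, ISG15 and IFI6 in TPM (vertical axis, linear to 1 and logarithmic above) in CTR, clone 1 and clone 2 libraries of 5 cell types; each point is a library. In cortical organoids all 4 genes are above CTR in every knockout library, while in lung organoids ISG15 overlaps between 166 and 363 TPM and CXCL11 does not.

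Likeness was measured by the correlation of mean log2(TPM + 1) over the 31 groups, among 15482 genes with a symbol and a mean of at least 5 TPM in some group; groups share lines and cell types, so these are descriptions. ART3 was the gene most like CXCL11 (Pearson r 0.86, Spearman rho 0.89) and CXCL11 the gene most like ART3. As this pair had been picked for its on-off pattern over these same groups, its rank carries no weight as evidence. The next genes for CXCL11 were BTF3 (r 0.73), NONO (0.69), DLG3 (0.67) and SYCE1L (0.66), and for ART3 they were SYCE1L (0.74), ZNF185 (0.72), FLT4 (0.72) and POPDC3 (0.71). CXCL10 came far lower for CXCL11 (r 0.39, rank 707), as did ISG15 (0.26), whereas CXCL10 itself had r 0.66 with IFIT1 and 0.55 with ISG15. The flanking NUP54 (0.36), SDAD1 (0.22) and SCARB2 (-0.10) were not among the genes like CXCL11.

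BTF3, on chromosome 5, was first described as a basal transcription factor and is a subunit of the nascent polypeptide-associated complex. It was at 100 and 102 TPM in cortical CTR and at 196 to 222 TPM in the knockout libraries. In lung organoids it was at 115 and 133 TPM in CTR and at 257 to 285 TPM in the clones, and in hepatic organoids at 114 and 137 TPM in CTR and at 173 to 275 TPM in the clones. These are the 3 organoid types in which CTR had CXCL11 off, and BTF3 was lower in those 6 libraries than in every other library of the series. BTF3 was picked for its likeness to CXCL11 over these same groups, so this match carries no weight as evidence. In hESC BTF3 overlapped (274 and 303 TPM in CTR, 278 to 298 TPM in the clones), and in nephron organoids it was at 253 and 258 TPM in CTR and 272 to 289 TPM in the clones. The WT hepatic organoids of day 17, where CXCL11 was off as well, had no such low BTF3: all 6 WT hepatic libraries were at 171 to 212 TPM. NONO and DLG3, next in likeness to CXCL11, overlapped between CTR and knockout in all 3 of these organoid types. SYCE1L was higher in every knockout library in cortical and hepatic organoids and overlapped in lung organoids.

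The PF-127 series asked what the polymer does to hESC, a contrast not used to pick the genes. None of the 5 members tested (SDAD1, CXCL11, ART3, NUP54 and SCARB2) passed the test at any time, with limma on log2(TPM + 1) and Benjamini-Hochberg adjustment over 19294 genes; the share of all genes called was 0% at 0 and 1 h, 0.213% at 4 h and 1.23% at 24 h. CXCL9 and CXCL10 were at or near 0 throughout (CXCL10 at most 0.270 TPM) and were not tested. At 24 h CXCL11 was at 3.37 and 3.58 TPM with PF-127 and at 5.21 and 4.65 TPM without it. The groups did not overlap, but the log2 difference of -0.40 ± 0.15 had an adjusted p of 0.29. At 0 h the groups were apart the other way, at 11.9 and 11.5 TPM with PF-127 and at 9.87 and 9.63 TPM without it (0.24 ± 0.15, limma, adjusted p = 0.94). At 4 h SDAD1 was at 76.2 and 83.0 TPM with PF-127 and 71.3 and 69.0 TPM without it (0.18 ± 0.05, limma, adjusted p = 0.16). NUP54 was at 25.4 and 26.9 TPM with PF-127 and 22.8 and 23.5 TPM without it (adjusted p = 0.24 by limma). Both genes were apart between the treatments at that time, without passing the test. No interaction between PF-127 and time passed (adjusted p = 0.38 to 0.77).

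With both treatments averaged, CXCL11 fell over the day. It was at 9.63 to 11.9 TPM in the 4 libraries of 0 h, 10.7 to 13.0 at 1 h, 6.94 to 10.6 at 4 h and 3.37 to 5.21 TPM at 24 h. The 24 h libraries lay below all 12 others. From 0 to 1 h the log2 change was 0.18 ± 0.11 (adjusted p = 0.31). From 1 to 4 h CXCL11 fell by 0.45 ± 0.11 on the log2 scale (limma, adjusted p = 0.0072), and from 4 to 24 h by 0.91 ± 0.11 (adjusted p = 3.7e-05), or from 8.80 ± 1.70 to 4.203 ± 0.875 TPM (SD, n = 4).

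ART3 stayed low, at 0.676 to 1.74 TPM at 0 h, 0.735 to 1.43 TPM at 1 h and 0.774 to 1.91 TPM at 4 h. At 24 h it was at 0.286 to 1.12 TPM, and it fell from 4 to 24 h by 0.59 ± 0.20 on the log2 scale (limma, adjusted p = 0.031), with overlapping libraries. That call was lost, at adjusted p = 0.052 to 0.12, without either 24 h library lacking PF-127, without the second with-PF-127 library of 4 or of 24 h, or without the first 4 h library lacking PF-127.

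NUP54 was at 24.4 to 26.4 TPM at 0 h, 27.7 to 32.6 at 1 h, 22.8 to 26.9 at 4 h and 22.8 to 23.8 TPM at 24 h. It rose from 0 to 1 h by 0.21 ± 0.04 (limma, adjusted p = 0.0093), with no overlap, and fell from 1 to 4 h by 0.27 ± 0.04 (adjusted p = 0.00051), again with no overlap. SDAD1 fell from 83.1 ± 0.216 to 74.9 ± 6.20 TPM between 1 and 4 h, by 0.15 ± 0.04 (limma, adjusted p = 0.0067). Between 4 and 24 h its log2 change was 0.10 ± 0.04 (limma, adjusted p = 0.042), which turned to -0.04 (adjusted p = 0.41) on rescaling by size factors. That call was also lost without any of 6 libraries (adjusted p = 0.057 to 0.14): all but the second of 4 and of 24 h with PF-127. SCARB2 passed in none of the 3 steps and stayed at 11.2 to 13.2 TPM.

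The members called were 1 of 5 from 0 to 1 h (12.5% of all genes were called), 3 of 5 from 1 to 4 h (35.8%) and 3 of 5 from 4 to 24 h (48.1%). With 5 members, a count of 3 is not far from the last share. Rescaling moved the median log2 change of all genes from 0.11 to -0.01 for 4 to 24 h, and the share of called genes that were higher from 71.3% to 49.7%; for 0 to 1 h that share moved from 42.4% to 59.3%. The fall of CXCL11 runs against the direction of the first median.

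**Figure D5:**
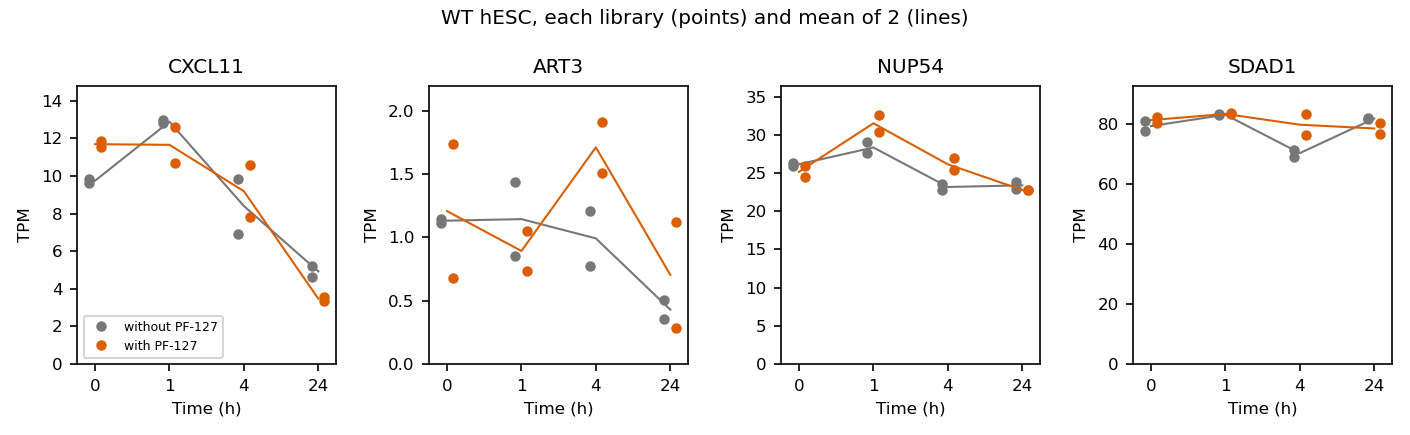
TPM (vertical axis) of CXCL11, ART3, NUP54 and SDAD1 in WT hESC at 0, 1, 4 and 24 h (horizontal axis, evenly spaced), without (grey) and with (orange) PF-127; points are libraries and lines join means of 2. CXCL11 falls to 3.37 to 5.21 TPM at 24 h with and without PF-127, and NUP54 is highest at 1 h.

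Other genes of the pathways were read against the same background of 48.1% of all genes called from 4 to 24 h, so the counts of single lists are descriptions. Of the other CXC chemokines 5 of 9 tested fell and 0 rose, also after rescaling. CXCL5, a neutrophil-attracting chemokine, fell from 34.2 ± 5.13 to 15.2 ± 3.87 TPM (limma log2 change -1.14 ± 0.11, adjusted p = 8.1e-06). CXCL12, the ligand of CXCR4, fell from 58.6 ± 3.79 to 36.8 ± 4.98 TPM (adjusted p = 8.9e-06), and CXCL6 from 4.90 ± 1.08 to 2.72 ± 0.464 TPM (limma, adjusted p = 0.0011). Of the receptors and processing enzymes 2 of 4 fell and 0 rose: ACKR3, the scavenging receptor of CXCL11 and CXCL12, from 4.91 ± 1.40 to 1.78 ± 0.885 TPM (limma, adjusted p = 0.0008), and DPP4, the protease that trims CXCR3 ligands, from 1.35 ± 0.131 to 0.534 ± 0.153 TPM (adjusted p = 0.00076).

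The interferon genes did not move as one. Of 18 interferon-stimulated genes 6 fell and 2 rose from 4 to 24 h; ISG15 fell from 27.9 ± 2.81 to 21.1 ± 1.70 TPM (limma, adjusted p = 0.0097), and USP18, which removes ISG15, rose (log2 change 0.95 ± 0.11, adjusted p = 2.8e-05). In the interferon gamma pathway 2 of 8 rose and 2 fell. SOCS1, its feedback inhibitor, rose from 4.17 ± 1.56 to 11.2 ± 3.03 TPM (limma, adjusted p = 9.9e-05). From 1 to 4 h, when 35.8% of all genes were called, SOCS1 had fallen, as had 9 of 18 interferon-stimulated genes, while 2 rose. NF-kappa-B genes split as well, with 2 of 10 higher and 3 lower from 4 to 24 h, and with 1 higher and 5 lower of 11 after rescaling. The inhibitor TNFAIP3 was among those that fell (3.38 ± 0.463 to 1.69 ± 0.470 TPM, limma, adjusted p = 0.0025).

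Partners of the outer genes were read alongside. Of 6 nuclear pore genes 5 rose from 4 to 24 h (4 after rescaling) and 0 fell, among them NUP214 (7.73 ± 0.378 to 11.4 ± 0.357 TPM, limma, adjusted p = 1.6e-05) and NUP88 (40.4 ± 1.65 to 54.6 ± 3.33 TPM, adjusted p = 1.1e-05). NUP54 was not among the genes that passed (log2 change -0.09 ± 0.04, adjusted p = 0.11), but it did after rescaling by size factors (-0.23, limma, adjusted p = 0.0018). Of 4 genes of the lysosome and scavenger receptor list 3 rose, including the protease CTSD (86.7 ± 11.5 to 116 ± 8.84 TPM, limma, adjusted p = 0.00063), with 2 higher and 1 lower after rescaling. Of 13 further neighbours 4 rose and 2 fell, a count near that share; USO1 rose from 105 ± 7.19 to 185 ± 8.09 TPM (limma, adjusted p = 6.7e-08). Between the libraries with and without PF-127, 1 of these 13 neighbours was called, beside 0.213% of all genes at 4 h and 1.23% at 24 h. The cyclin CCNG2 was lower with PF-127 at 4 h (log2 difference -0.58 ± 0.10, limma, adjusted p = 0.047) and higher at 24 h (0.55 ± 0.10, adjusted p = 0.021). Both calls rest on the fit of all 16 WT hESC libraries: with the 4 libraries of each time alone, limma called 0 genes at 4 h and 0 at 24 h.

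Culture formats of WT organoids were compared next. Cortical organoids labelled PN96 (day 53) and SPIN (day 60) also differ in age, and the format and the day cannot be told apart. SDAD1 was at 28.9 and 28.8 TPM in PN96 and at 47.7 and 55.9 TPM in SPIN. SCARB2 was at 54.3 and 53.0 TPM in PN96 and at 82.0 and 75.0 TPM in SPIN. Both were lower in PN96 with no overlap, by a log2 difference of -0.82 ± 0.13 (limma, adjusted p = 0.0046) and -0.54 ± 0.11 (adjusted p = 0.012). These were 2 of 4 members tested, with 39.2% of all genes called. The SCARB2 call was lost without either PN96 library (adjusted p = 0.07 and 0.08). CXCL11, at 0.657 and 1.17 against 0.700 and 2.19 TPM, overlapped (adjusted p = 0.62).

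In the same comparison, again beside 39.2% of all genes called, 4 of 8 interferon gamma pathway genes were lower in PN96 and 0 higher, including the receptor kinase JAK1 (25.9 ± 2.99 against 55.7 ± 4.42 TPM, limma, adjusted p = 0.0022). Of 22 interferon-stimulated genes 9 were lower and 2 higher, and ISG15 was among the higher (39.6 ± 4.50 against 4.17 ± 0.474 TPM, limma, adjusted p = 2e-04). CXCR4 was higher in PN96 (69.2 ± 6.47 against 29.8 ± 7.95 TPM, limma, adjusted p = 0.006). Of the lysosomal genes beside SCARB2, LAMP2 was lower (46.4 ± 2.29 against 99.1 ± 3.30 TPM, adjusted p = 0.00099 by limma) and CTSD higher (65.4 ± 6.32 against 22.8 ± 2.20 TPM, limma, adjusted p = 0.0022). Of 14 further neighbours 5 were lower and 1 higher, with USO1 at 67.4 ± 4.02 against 194 ± 17.2 TPM (limma, adjusted p = 0.00045).

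Cortical Chip organoids of day 54 had CXCL11 at 3.58 and 5.98 TPM, above the 0.657 and 1.17 TPM of PN96 at day 53, and SDAD1 at 46.9 and 43.9 against 28.9 and 28.8 TPM. Neither gene overlapped between the formats, but neither passed the test (log2 difference 1.58 ± 0.43, limma, adjusted p = 0.28, and 0.64 ± 0.13, adjusted p = 0.21). None of 4 members was called, against 0.088% of all genes; of the genes called 31.6% were higher, and 7.14% after rescaling. ART3 was at 0.205 and 1.41 TPM on Chip and was not tested.

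Hepatic organoids of day 17 differed by format in none of the 5 members tested, against 7.56% of all genes called. SCARB2 was at 20.5 and 20.3 TPM on Chip and at 23.0 TPM in both PN96 libraries, apart but not past the test (limma, adjusted p = 0.32). Of the genes called 11.9% were higher on Chip, and 47.6% after rescaling, which moved the median of all genes from -0.22 to 0.00. Mitochondrial genes took 26.9% and 27.9% of TPM on Chip and 17.7% and 17.4% in PN96, and 18830 and 18736 genes reached 1 TPM on Chip against 19788 and 19804 in PN96; their part in the results was not tested. The NF-kappa-B list had 3 of 11 genes lower on Chip and 0 higher, with 2 lower after rescaling. TNFAIP3 was at 11.2 ± 0.893 against 33.9 ± 0.156 TPM (limma, adjusted p = 0.018) and NFKBIA at 39.9 ± 0.111 against 77.1 ± 0.0337 TPM (adjusted p = 0.02). CXCL16, a membrane-bound chemokine, was higher (11.7 ± 0.0785 against 4.92 ± 0.0854 TPM, limma, adjusted p = 0.039). Nearly all calls of this comparison over all genes were lost whichever of its libraries was left out. The calls named here therefore rest on the full set of libraries.

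Between hepatic WT PN96 organoids of day 17 and day 21, CXCL11 went from 0 TPM in both libraries to 15.1 and 16.1 TPM. ART3 was at 0.436 and 0.118 TPM on day 17 and at 4.81 and 6.20 TPM on day 21, with no overlap. Both are descriptions: CXCL11 passed the filter only through the day 21 libraries, and WT levels had served to pick the genes. The count of 1 of 5 members called, CXCL11, beside 0.101% of all genes, is therefore given with nothing read from it, and no fold is given against a group listed at 0. CXCL10 and CXCL9 were at 0 on both days, and none of 23 interferon-stimulated genes or 7 other CXC chemokines was called. ISG15 was at 50.8 ± 2.93 TPM on day 21 and 34.1 ± 4.02 TPM on day 17 (limma, adjusted p = 0.18).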

How the data were processed

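PolyA RNA sequencing of 62 libraries was read from 1 table of TPM values deposited by the authors. Per the submitters' processing notes, the tools included FastQC 0.11.9, Trim Galore 0.6.7, cutadapt 4.1, STAR 2.7.10a, featureCounts 2.0.1, DESeq2 1.36.0 and R 4.2.0, with GRCh38 (hg38) as the build. Strandedness and the annotation release are not given in the sources used here. The authors also deposited DESeq2 tables of each clone against CTR, which hold a base mean signal, a log2 fold change, its standard error, a Wald score and p-values with adjusted p-values; of these only the log2 fold change and its standard error are printed.

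The members, gene lists and tests were chosen with earlier results of these data known. Groups follow the labels. Values were taken as log2(TPM + 1); genes reaching 1 TPM in at least 2 libraries of a fit were tested with limma 3.58.1 in R 4.3.3, with 1 fit each for WT hESC, cortical WT and hepatic WT libraries, 11 comparisons in all, and Benjamini-Hochberg adjustment over all genes of a fit with a threshold of 0.05. Where a symbol had several rows, the one with the highest mean was used. TPM are scaled to the same total per library, so a few abundant genes can shift all others; rescaling by size factors was tried for that reason. The other alternatives were a pseudocount of 0.1 TPM, no filter or one at 5 TPM, a replicate block, the 4 libraries of each time alone for PF-127, single clones, other on thresholds and leaving out each library. CTR against clones, CTR against WT and levels across cell types were not tested, because they served to pick the genes. Named genes were the 7 members, NEAT1, the 5 genes most like CXCL11 and ART3, from each list up to 4 called genes with the largest change, and in CTR and the clones the first 4 measured interferon-stimulated genes as listed and the neighbours whose libraries did not overlap. IFIT1 in the likeness values and ISG15 and NUP54 where not called were added to these. Some items are not reported here. The scripts were tested on simulated data. All libraries differed from each other (0 identical pairs), and 16989 to 20396 genes reached 1 TPM. Mitochondrial genes took 9.68% to 30.0% of TPM. There were 0 columns of per-sample values left unused.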

Additional observations from a re-analysis of the deposited data

Results flagged for a closer look

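Among the 4 knockout libraries of each cell type, the highest or lowest value was compared with the others by Dixon's gap over range in 32 sets of 4, of which about 1 in 20 is expected to stand out by chance. In 2 sets 1 library stood apart. SCARB2 in cortical organoids was at 36.3 TPM in the second library of clone 2, against 28.7 to 29.1 TPM in the other 3. CXCL9 in cortical organoids was at 0.751 TPM in that same library and listed at 0 in the other 3. CXCL10, CXCL11, ISG15 and IFI6 were also highest in that library, at 88.7, 77.8, 1413 and 2670.4 TPM. With 3 of 4 values at 0, any other value gives a gap over range of 1.0. The CXCL9 flag therefore carries no weight, and the rate of 1 in 20 does not apply to such a set.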

How the results depend on the processing

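Of the counts and values that answer a comparison, 211 recomputed values stayed the same and 25 moved. Members called from 4 to 24 h numbered 3, and 1 to 3 when leaving out each library (1 without either 24 h library lacking PF-127 or the first 4 h library lacking it). Cortical PN96 against SPIN gave 2, and 1 to 2 when leaving out each library. Hepatic day 21 against day 17 gave 1, but 0 with a pseudocount of 0.1 TPM, 0 with no filter and 0 without any 1 library. With the 4 libraries of each time alone, PF-127 gave 0 called genes at all 4 times. SDAD1 from 4 to 24 h turned to -0.042 on the log2 scale when rescaled.

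Members with every clone library above CTR in hESC went from 2 to 0 when rescaled and to 5 with clone 2 alone (2 to 5 when leaving out each library). In lung organoids they went from 2 to 4 with clone 2 alone (2 to 4 when leaving out each library), and those below from 0 to between 0 and 1. Those below in nephron organoids went from 1 to 2 with clone 2 alone (1 to 2), and in hepatic organoids from 0 to 1 with clone 1 alone. With on set at 2 TPM, CXCL10 was on in 2 groups and ART3 in 13, and at 10 TPM ART3 in 2. The cause was not tested in any of these; fewer libraries make separation easier by construction.

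Replicate numbers did not pair the libraries: same-numbered deviations correlated at -0.09 to 0.10 in hESC, -0.02 to 0.07 in cortical and -0.03 to 0.16 in hepatic organoids. With the replicate block, hepatic day 21 gave 0 members called (CXCL11 adjusted p = 0.05 by limma) and SDAD1 from 4 to 24 h had an adjusted p of 0.053. TPM keep no depth, and groups of 2 limit every comparison.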
